A study of Mus musculus with 8 samples.

Results

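The mouse miR-322, miR-503 and miR-542 cluster is a group of miRNA genes that lie close together on the X chromosome. Its members here were the 7 mature miRNAs mmu-miR-322-5p, mmu-miR-322-3p, mmu-miR-503-5p, mmu-miR-351-5p, mmu-miR-542-5p, mmu-miR-542-3p and mmu-miR-450a-5p, out of 1881 mouse miRNAs on the array. The species prefix mmu is left off from here on. They were taken by name, with every probe that the array carries for each of them. The choice was made with earlier results of these data known. Abundance was measured with 8 single-colour Agilent miRNA arrays in footpad skin of mouse embryos, from which the eccrine sweat glands develop.

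The study compared 4 groups with 2 arrays each: conditional knockout (cKO) of Dicer at embryonic stage E17.5, cKO at E16.5, wild type at E17.5 and wild type at E16.5. Embryos of every group had the C57BL6 background. Each array held RNA pooled from 3 to 5 embryos, so a p-value measures the spread between pools. The labels give neither the Cre driver nor the cells in which Dicer was deleted, and they do not give the sex of the pooled embryos, whose part in the values of an X-linked locus was not tested.

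miRNAs are short RNAs that bind messenger RNAs through their seed, bases 2 to 8 from the 5′ end, and lower the output of those messages. Dicer cuts the precursor hairpin into the mature arms, named 5p and 3p after the side of the hairpin they come from. miR-322 is the mouse counterpart of human miR-424, and miR-322-5p and miR-503-5p are known for restraining the cell cycle through targets such as cyclin D1 and Cdc25a, including in differentiating mouse muscle cells. In muscle cells the locus is known to be switched on as they stop dividing and differentiate.

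In RefSeq's annotation of GRCm38.p6 the locus spans chrX:53047997-53054349 on the minus strand, 6353 bases that hold 7 miRNA genes and 13 mature miRNAs. Its order along the transcribed strand is Mir322, Mir503, Mir351, Mir542, Mir450-2, Mir450-1 and Mir450b. Mir503 begins 295 bases and Mir351 1011 bases downstream of the start of Mir322, while Mir542 begins 4862 bases and Mir450-2 5982 bases downstream. All 7 members had a mature sequence in the RefSeq table. Their sequences are given 5′ to 3′ in locus order with the seed in capitals, since the members differ in their seeds.
miR-322-5p: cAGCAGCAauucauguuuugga
miR-322-3p: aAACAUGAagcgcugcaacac
miR-503-5p: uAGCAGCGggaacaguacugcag
miR-351-5p: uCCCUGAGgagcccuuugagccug
miR-542-5p: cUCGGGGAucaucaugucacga
miR-542-3p: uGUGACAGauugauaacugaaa
miR-450a-5p: uUUUGCGAuguguuccuaauau

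The 7 members carry 7 distinct seeds of bases 2 to 8. The seeds of miR-322-5p and miR-503-5p share bases 2 to 7 and differ by A8G, with the base of miR-322-5p first and positions counted from 1 at the 5′ end. That of miR-322-5p recurs in 9 other mature miRNAs among the 1679 in the table, the miR-15 and miR-16 family included. miR-351-5p shares its seed with 4 others, among them miR-125a-5p and miR-125b-5p, which are made from other chromosomes. No other miRNA in the table has the seed of miR-322-3p, miR-503-5p, miR-542-3p or miR-450a-5p. The shared seeds are shown in 5 miRNAs from other loci that were also measured on these arrays.
miR-15a-5p: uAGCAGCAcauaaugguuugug
miR-16-5p: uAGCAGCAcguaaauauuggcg
miR-497a-5p: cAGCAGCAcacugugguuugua
miR-125a-5p: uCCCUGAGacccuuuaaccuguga
miR-125b-5p: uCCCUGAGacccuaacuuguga

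Both arms of Mir322 and of Mir542 are members, and miR-450a-5p is encoded in both Mir450-2 and Mir450-1, so an array reading cannot tell apart its copies at chrX:53048339-53048360 and chrX:53048206-53048227. These hairpins are printed from RefSeq with the mature arms in capitals.
Mir322: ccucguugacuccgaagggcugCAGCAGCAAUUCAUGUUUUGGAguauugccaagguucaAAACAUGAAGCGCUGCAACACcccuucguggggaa
Mir542: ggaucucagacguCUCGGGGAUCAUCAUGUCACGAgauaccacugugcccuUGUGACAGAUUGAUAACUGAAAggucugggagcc
Mir450-2: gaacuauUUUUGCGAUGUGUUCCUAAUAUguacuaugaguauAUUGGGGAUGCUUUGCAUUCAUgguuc
Mir450-1: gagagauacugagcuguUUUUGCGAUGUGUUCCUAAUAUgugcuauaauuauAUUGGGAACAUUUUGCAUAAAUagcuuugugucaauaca

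Of 20 probes for the members, with 210 spots on each array, 9 were detected on all 8 arrays and 5 on none. A probe was called detected where more than 50% of its spots stood well above background. The probe that represents each member is the brightest one for it, and its sequence is printed from the scanner files with the bases that pair with the seed in capitals.
Probe for miR-322-5p: tccaaaacatgaatTGCTGCTg
Probe for miR-322-3p: gtgttgcagcgctT
Probe for miR-503-5p: ctgcagtactgttccC
Probe for miR-351-5p: caggctcaaagggctc
Probe for miR-542-5p: tcgtgacatgatgaTCCCC
Probe for miR-542-3p: tttcagttatcaatCTGTCACa
Probe for miR-450a-5p: atattaggaacacaTCGCAA

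Pairing with the mature miRNA starts at its 3′ end in each of these probes. Those for miR-322-5p and miR-542-3p pair with all 22 bases. The probe for miR-351-5p pairs with bases 9 to 24 and so reads none of the seed it shares with the miR-125 pair, and the probe for miR-503-5p pairs with bases 8 to 23. The longest run that a member's representing probe shares with another mature miRNA in the table was 11 bases, between that for miR-542-3p and miR-101a-3p. Detection fell off with probe length: the 14-base probe for miR-322-3p was detected on 8 arrays, the 13-base probe on 6 and the 12-base and 11-base probes on 0.

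Values are log2 scaled signals: each array's background-subtracted intensity was divided by the 75th percentile of its 474 probes detected on all 8 arrays, so that 0 stands for that percentile. Levels of different miRNAs are not set against each other, because probes differ in response. Detection was complete for 6 members, on all 8 arrays, and miR-542-5p was detected on 7, with the second cKO array at E16.5 as the exception. None of the members' values lay at the floor of −4.24 to which dim signals were raised. Across the arrays, 278 to 382 miRNAs were detected, the fewest on the second E16.5 arrays (280 in cKO and 278 in wild type). The first E16.5 arrays had 365 in cKO and 367 in wild type. Replicate arrays correlated at r = 0.997 to 0.999 over the 383 miRNAs tested.

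Over both stages 5 of the 7 members were higher in cKO than in wild-type footpad skin, miR-450a-5p by 0.28, miR-503-5p by 0.26, miR-322-5p by 0.23, miR-351-5p by 0.21 and miR-322-3p by 0.19 on the log2 scale, under the scaling used here. The arms of Mir542 did not pass the test. Among all 383 miRNAs tested with limma (Benjamini-Hochberg adjusted p under 0.05), 45.7% were higher and 14.6% lower, and the median change of all of them was 0.17, so a small rise was the common outcome on these arrays. The members' median was 0.21. Of all calls 75.8% were higher. That share was 69.1% with quantile scaling and 67% with the median of the detected probes. It was 10.2% with the 75th percentile of all probes, 9.52% without scaling and 1.3% with the control probes. With quantile scaling the same 5 members passed as higher, and with the median of the detected probes all of these but miR-322-3p. Without scaling, with the 75th percentile of all probes, or with the control probes, no member passed as higher, and with the control probes all 7 passed as lower, so the direction of these changes follows the scaling. In bulk skin, fewer cells of a type and less RNA per cell cannot be told apart.

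**Figure D1:**
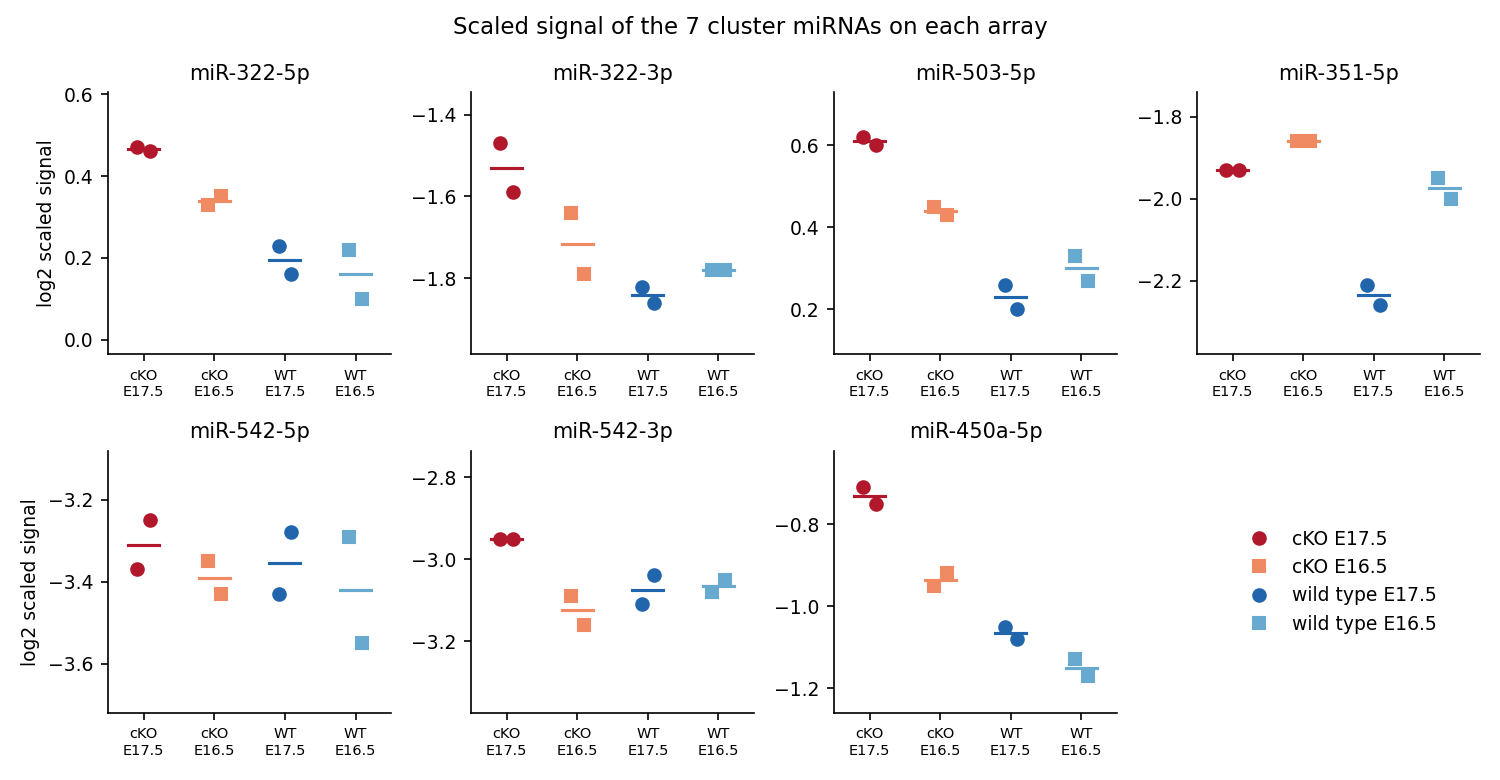
Log2 scaled signal (vertical axis) of each of the 7 members on each of the 8 arrays, grouped as cKO E17.5, cKO E16.5, wild type (WT) E17.5 and wild type E16.5. Points are arrays, horizontal lines are means of 2 arrays, and every panel spans the same range, with its own centre. The 4 cKO points of miR-322-5p, miR-503-5p, miR-351-5p and miR-450a-5p lie above their 4 wild-type points under this scaling, whereas those of miR-322-3p and of both Mir542 arms overlap.

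miR-322-5p, the arm of Mir322 with the miR-15/16 seed, read 0.47 and 0.46 in cKO at E17.5, 0.33 and 0.35 in cKO at E16.5, 0.23 and 0.16 in wild type at E17.5, and 0.22 and 0.10 in wild type at E16.5. All 4 cKO arrays lay above all 4 wild-type arrays. Its change over both stages was 0.23 ± 0.0328 (SE; adjusted p = 0.00295, limma, 4 arrays a genotype), a 1.17-fold difference. The 21-base probe for the same miRNA gave 0.22. On the unscaled intensity the order of the groups was another one, with means of 540 in cKO at E17.5, 365 in cKO at E16.5, 586 in wild type at E17.5 and 383 in wild type at E16.5.

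miR-503-5p, which lies next downstream and shares bases 2 to 7 with it, read 0.62 and 0.60 in cKO at E17.5, 0.45 and 0.43 in cKO at E16.5, 0.26 and 0.20 in wild type at E17.5, and 0.33 and 0.27 in wild type at E16.5. The genotypes did not overlap, and the distance between them was wider at E17.5. Over both stages it differed by 0.26 ± 0.023 (SE; adjusted p = 0.000567, limma). Its unscaled means of 597 in cKO and 600 in wild type at E17.5 were nearly the same.

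miR-322-3p, the other arm of Mir322, read −1.47 and −1.59 in cKO at E17.5, −1.64 and −1.79 in cKO at E16.5, −1.82 and −1.86 in wild type at E17.5, and −1.78 on both wild-type arrays at E16.5. The second cKO array at E16.5 fell within the wild-type range and the other 3 cKO arrays lay above it. Its change of 0.19 ± 0.0485 (SE; adjusted p = 0.0218, limma) rests on few arrays, since the adjusted p was above 0.05 when any of 5 of the 8 arrays was left out: the first cKO array at E17.5 or any 1 of the 4 wild-type arrays (values 0.16 to 0.20).

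miR-351-5p, with the miR-125 seed, read −1.93 on both cKO arrays at E17.5 and −1.86 on both at E16.5, against −2.21 and −2.26 in wild type at E17.5 and −1.95 and −2 in wild type at E16.5. The genotypes were separated here too, by 0.21 ± 0.0265 over both stages (SE; adjusted p = 0.00183, limma). Both genotypes had lower readings at E17.5 than at E16.5. The opposite arm of the same hairpin, miR-351-3p, is no member and was detected on 6 of 8 arrays near the floor. It read −3.85 and −3.92 in cKO at E17.5, −3.76 and −3.75 in cKO at E16.5, −4.19 and −4.24 in wild type at E17.5, and −4.00 and −4.08 in wild type at E16.5, where −4.24 is the floor. Over both stages it was higher in cKO by 0.31 ± 0.0271 (SE; adjusted p = 0.000546, limma) under the scaling used here.

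miR-450a-5p, made from both Mir450 hairpins at the downstream end, read −0.71 and −0.75 in cKO at E17.5, −0.95 and −0.92 in cKO at E16.5, −1.05 and −1.08 in wild type at E17.5, and −1.13 and −1.17 in wild type at E16.5. Its 4 groups formed 4 steps with no overlap, in the order just given. The groups of miR-503-5p and miR-351-5p also formed 4 steps, but with E16.5 above E17.5 in wild type for both and in cKO for miR-351-5p. How many of all tested miRNAs formed 4 steps was not counted. Separations of 2 groups were common: at E17.5, 55.6% were higher and 18.5% lower in cKO without overlap. The change of miR-450a-5p over both stages, 0.28 ± 0.0229 (SE; adjusted p = 0.000454, limma), was the widest among the members.

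miR-542-3p, known in human cells for targeting the apoptosis inhibitor survivin, read −2.95 on both cKO arrays at E17.5, −3.09 and −3.16 in cKO at E16.5, −3.11 and −3.04 in wild type at E17.5, and −3.08 and −3.05 in wild type at E16.5. The cKO arrays lay above wild type at E17.5 and below it at E16.5. Over both stages the change was 0.03, with a 95% interval of −0.05 to 0.11 (adjusted p = 0.397, limma). That interval excludes the median change of all miRNAs, 0.17, which is no test against that median. At E17.5 the change of miR-542-3p, 0.12, was near the median of 0.13. At E16.5 its change of −0.06 lay below the median of 0.19. miR-542-5p read −3.37 and −3.25 in cKO at E17.5, −3.35 and −3.43 in cKO at E16.5, −3.43 and −3.28 in wild type at E17.5, and −3.29 and −3.55 in wild type at E16.5. Its genotypes overlapped at both stages and its replicates were the most spread of any member, with a change of 0.04 and an interval of −0.16 to 0.23 (adjusted p = 0.706, limma). Neither interval shows that these arms stayed the same. Both miRNAs gave dim spots, with unscaled signals of 24.3 to 63.3, and the coefficient of variation over a probe's spots reached 30.9% for miR-542-3p, against at most 12.4% for the members outside Mir542.

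With 4 arrays set against 4, 4 members were higher on every cKO array than on every wild-type array, where 25.6% of all tested miRNAs did the same and 11.2% were lower on every array. The slide held replicate 1 of every group in 1 row and replicate 2 in the other, and within each row the cKO minus wild-type change was 0.24 and 0.28 for miR-503-5p, 0.26 and 0.29 for miR-450a-5p, 0.18 and 0.28 for miR-322-5p, 0.19 and 0.24 for miR-351-5p and 0.25 and 0.13 for miR-322-3p. Those of miR-542-3p were 0.08 and −0.01. Groups fill the 4 columns of the slide, so group and column cannot be told apart.

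**Figure D2:**
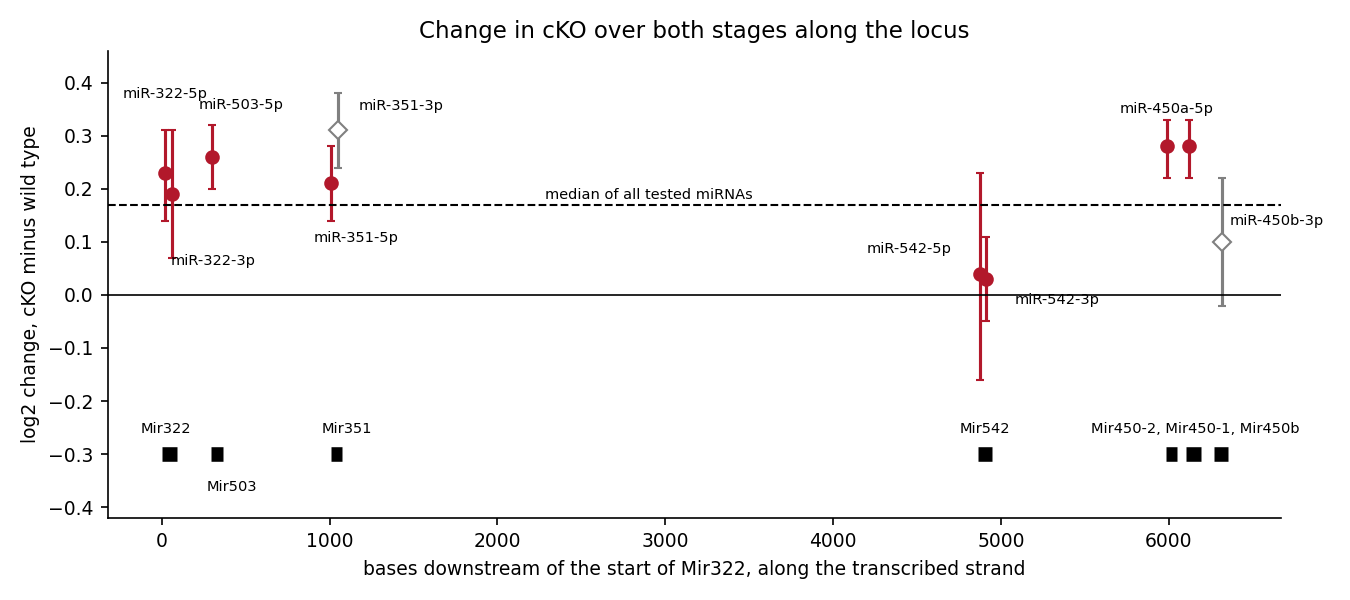
Log2 change in cKO minus wild type over both stages (vertical axis, scaled signal) against the distance in bases from the start of Mir322. Red circles are members, with miR-450a-5p drawn at both of its genes. Grey diamonds are the non-members miR-351-3p and miR-450b-3p. Bars are 95% intervals, and black blocks mark the hairpins (for Mir351, its mature arms). Both arms of Mir542 lie below the dashed median of all tested miRNAs, 0.17, with members above it on either side. The non-member miR-450b-3p, at the downstream end, also lies below it, and miR-351-3p lies above it. The non-member miR-450a-2-3p was tested but is not drawn, since it lay at the floor on every array. With the control probes as the scale all 7 members lie below 0.

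Along the locus, the 5 members that passed come from Mir322, Mir503 and Mir351 upstream and from the pair Mir450-2 and Mir450-1 downstream. Both arms of Mir542, between them, had values near 0. The last gene, Mir450b, has no member, and its miR-450b-3p had 0.10 (adjusted p = 0.136, limma), below the median of 0.17. The non-member miR-351-3p had 0.31. Both Mir542 arms and these 2 non-members were dim. Each change was also set against the median of all tested miRNAs, which moved from −0.34 to 0.17 over the 6 scalings. That difference ran from −0.01 to 0.13 for miR-322-5p, from 0.02 to 0.15 for miR-503-5p and from 0.04 to 0.14 for miR-450a-5p. It ran from −0.05 to 0.03 for miR-322-3p and from −0.03 to 0.08 for miR-351-5p. It was below 0 under each of the 6 for the Mir542 arms, from −0.21 to −0.13 for miR-542-3p and from −0.20 to −0.13 for miR-542-5p. Under every scaling but the quantile one, all miRNAs of an array change by the same factor, apart from the floor. Agreement among those scalings is therefore largely built in and gives no separate support. These differences describe where each miRNA stands among the others and carry no test of their own.

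**Figure D3:**
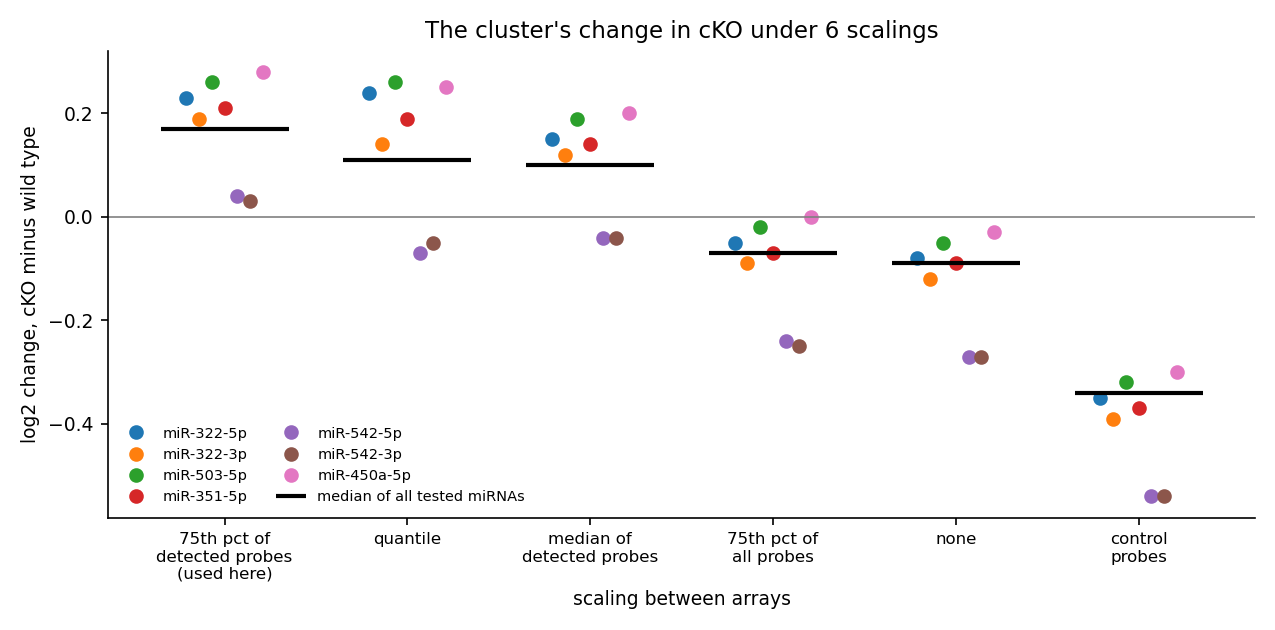
Log2 change in cKO minus wild type over both stages (vertical axis) for the 7 members under 6 ways of scaling the arrays (horizontal axis). Each point is 1 member and each black bar is the median of all tested miRNAs. The members moved with the bar, largely by construction, since every scaling but the quantile one applies the same factor to all miRNAs of an array. miR-503-5p was 0.26 under the scaling used here and −0.32 with the control probes, where the bar was at −0.34.

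A ratio of 2 miRNAs within an array needs no scaling between arrays, so miR-322-5p was set against each other member detected on all 8 arrays. Against miR-542-3p the log2 ratio was 3.42 and 3.41 in cKO at E17.5, 3.42 and 3.51 in cKO at E16.5, 3.34 and 3.2 in wild type at E17.5, and 3.30 and 3.15 in wild type at E16.5. All 4 cKO ratios were above all 4 wild-type ratios. How many of all tested miRNAs separate the genotypes in a ratio to miR-322-5p was not counted. A ratio does not take out the background subtraction, and the spots of miR-542-3p were dim. The mean ratios of 3.44 in cKO and 3.25 in wild type differed by 0.196, at p = 0.0286 in a two-sided exact permutation test of 4 against 4 arrays, which is the smallest p its 70 arrangements can give. Adjusted over the 10 ratio tests the p was 0.143. A lone ratio at that smallest p cannot pass after this adjustment, so the test cannot decide whether the ratio differs. The difference was 0.15 within E17.5 and 0.24 within E16.5. When only arrays of the same stage were exchanged the exact p was 0.0556, the smallest possible with 36 arrangements, which cannot pass either.

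The other ratios to miR-322-5p moved less with genotype. Against its own opposite arm, miR-322-3p, the mean was 2.03 in cKO and 1.99 in wild type (exact permutation p = 0.543). Differences of −0.032 against miR-503-5p, 0.016 against miR-351-5p and −0.047 against miR-450a-5p had exact permutation p of 0.371, 0.829 and 0.257. Genotypes overlapped in all 4 of these ratios.

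**Figure D4:**
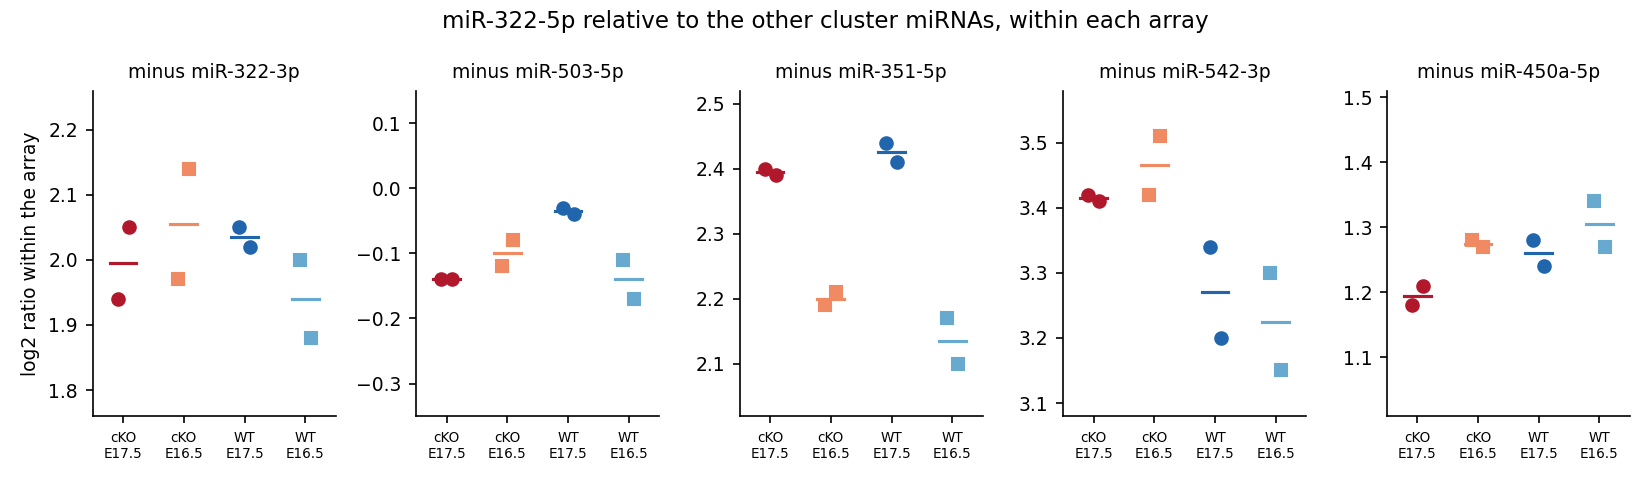
Log2 ratio of miR-322-5p to 5 other members within each array (vertical axis), for cKO E17.5, cKO E16.5, wild type (WT) E17.5 and wild type E16.5. Points are arrays and lines are means of 2. The ratio to miR-542-3p is higher on the 4 cKO arrays, 3.41 to 3.51, than on the 4 wild-type arrays, 3.15 to 3.34, and the ratio to miR-351-5p is higher at E17.5 than at E16.5 in both genotypes. Such separations were not counted over all tested miRNAs.

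At E17.5, 5 of the 7 members were higher in cKO than in wild type, where 36% of all tested miRNAs were higher and 10.2% lower. miR-503-5p led with 0.38 (95% interval 0.30 to 0.46, adjusted p = 0.00091, limma). miR-450a-5p followed at 0.34 (adjusted p = 0.00133), miR-322-3p at 0.31 (0.0164), miR-351-5p at 0.30 (0.00239) and miR-322-5p at 0.27 (0.00736). miR-542-3p had 0.12 with an interval of 0.01 to 0.24 and an adjusted p of 0.069, and miR-542-5p had 0.04 with an interval of −0.23 to 0.31. The members' median was 0.30, against 0.13 for all tested miRNAs. Without overlap, 6 of 7 members were higher on both cKO arrays than on both wild-type arrays, against 55.6% of all tested miRNAs that were higher and 18.5% that were lower in this way. With the control probes as the scale all 7 passed as lower, from −0.40 for miR-503-5p to −0.74 for miR-542-5p. The call of miR-322-3p ended without the first cKO array or either wild-type array at E17.5 (0.25 to 0.33).

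At E16.5, 4 members were higher in cKO, against 35.5% of all tested miRNAs that were higher and 15.1% that were lower: miR-450a-5p by 0.21 (adjusted p = 0.006, limma), miR-322-5p by 0.18 (0.0264), miR-503-5p by 0.14 (0.0215) and miR-351-5p by 0.12 (0.0471). The members' median of 0.12 was below that of all tested miRNAs, 0.19. miR-322-3p had 0.06 with an interval of −0.11 to 0.24, miR-542-5p 0.03 with −0.24 to 0.30, and miR-542-3p −0.06 with −0.17 to 0.05. On both cKO arrays 4 members were higher and 1, miR-542-3p, was lower than on both wild-type arrays, against 55.9% and 19.3% of all tested miRNAs. These calls are weaker than those at E17.5: leaving out any 1 of the 8 arrays ended that of miR-351-5p (values 0.10 to 0.14), as did the slide row as a block (0.12, adjusted p = 0.0645). That of miR-503-5p ended without either cKO array or the second wild-type array at E16.5 (0.11 to 0.15), and that of miR-322-5p without any of those 3 or either cKO array at E17.5 (0.13 to 0.19). Without scaling all 4 were at or below −0.01.

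**Figure D5:**
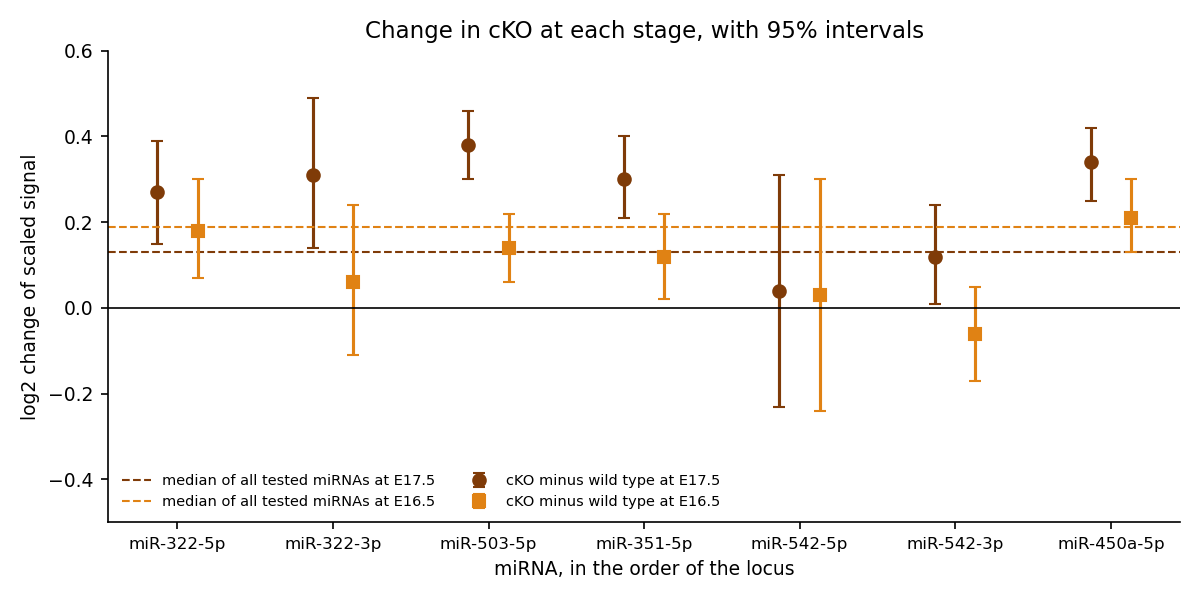
Log2 change of the scaled signal in cKO minus wild type (vertical axis) for each member at E17.5 (circles) and E16.5 (squares). Bars are 95% intervals from limma, and dashed lines mark the median of all tested miRNAs, 0.13 at E17.5 and 0.19 at E16.5. Each member's estimate at E17.5 is above that at E16.5, from 0.38 against 0.14 for miR-503-5p to 0.04 against 0.03 for miR-542-5p, a difference that passed for no member; with the control probes all E17.5 estimates are below 0.

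No member passed the test of the genotype effect at E17.5 minus that at E16.5 (0 of 7 by limma, with 5 of 7 at an unadjusted p under 0.05). Among all 383 tested miRNAs 0.783% passed in each direction, and 105 had an unadjusted p under 0.05. All 7 estimates were above 0 under the scaling used here, from 0.01 for miR-542-5p to 0.25 for miR-322-3p, and 0.24 ± 0.0461 (SE) for miR-503-5p had the lowest adjusted p, 0.0656. The median of all tested miRNAs was 0.05. With the control probes as the scale all of these differences were below 0 and those of miR-322-5p, −0.32, and miR-542-5p, −0.40, passed.

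Between the stages, over both genotypes 1 member was higher at E17.5 than at E16.5, miR-450a-5p by 0.14 ± 0.0229 (SE; adjusted p = 0.0146, limma), against 15.7% of all tested miRNAs. Another 1, miR-351-5p, was lower, at −0.17 ± 0.0265 (adjusted p = 0.0146), against 27.4%. The other 5 had values of 0.05 to 0.08 and did not pass. The call of miR-450a-5p ended without the first cKO array or either wild-type array at E17.5 (0.13 to 0.15), and that of miR-351-5p without the first cKO or the second wild-type array at E17.5 (−0.16 and −0.15). No member separated the 4 E17.5 arrays from the 4 E16.5 arrays, as 4.7% of all tested miRNAs did upward and 10.7% downward. With no scaling, 6 members passed as higher at E17.5 and miR-351-5p had 0.36.

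Within cKO, 3 members were higher at E17.5, miR-450a-5p by 0.20 (adjusted p = 0.0174, limma), miR-503-5p by 0.17 (0.0229) and miR-542-3p by 0.17 (0.0374), against 15.1% of all tested miRNAs that were higher and 20.1% that were lower; with no scaling none passed. Without overlap between the cKO stages, 5 members were higher and 1, miR-351-5p, was lower, against 35% and 36% of all tested miRNAs. The call of miR-503-5p ended without any 1 of the 4 cKO arrays (0.16 to 0.18), and that of miR-542-3p without any 1 of the 8 arrays other than the first wild-type array at E16.5 (0.13 to 0.21), or with the slide row as a block (0.17, adjusted p = 0.0608). That of miR-450a-5p ended without either first cKO array (0.18 and 0.19). Within wild type only miR-351-5p passed, at −0.26 ± 0.0374 (SE; adjusted p = 0.0179), against 10.7% of all tested miRNAs that were lower and 4.18% that were higher, and its call ended without either wild-type array at E17.5 (−0.28 and −0.23). That direction follows the scaling too: miR-351-5p had 0.35 with no scaling and 0.13 with the control probes, where 4 and 6 other members passed as higher. Over all tested miRNAs 16 were higher and 41 lower in wild type at E17.5, against 187 and 4 with no scaling and 201 and 5 with the control probes. Without overlap between the wild-type stages, 1 member was higher (miR-450a-5p) and 3 were lower (miR-322-3p, miR-503-5p and miR-351-5p), against 19.1% and 41.5% of all tested miRNAs. Comparisons of genotype and of stage draw on the same 8 arrays, so they are not independent of each other.

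The ratio of miR-322-5p to miR-351-5p was compared between the stages in the same way, with no scaling. Its log2 value was 2.40 and 2.39 in cKO at E17.5, 2.19 and 2.21 in cKO at E16.5, 2.44 and 2.41 in wild type at E17.5, and 2.17 and 2.10 in wild type at E16.5. Both stages were separated in both genotypes. The means of 2.41 at E17.5 and 2.17 at E16.5 differed by 0.245, at p = 0.0286 in the two-sided exact permutation test, the smallest 70 arrangements can give, and 0.143 after adjustment over the 10 tests. The difference was 0.20 within cKO and 0.29 within wild type. With 4 arrays against 4, no other ratio separated the stages, and that to miR-450a-5p differed by −0.063 (exact permutation p = 0.0857, adjusted 0.286). Within each genotype the ratio to miR-503-5p also separated them, in opposite directions. It was −0.14 on both cKO arrays at E17.5 and −0.12 and −0.08 at E16.5, and in wild type −0.03 and −0.04 at E17.5 and −0.11 and −0.17 at E16.5. How many of all tested miRNAs separate the stages in a ratio to miR-322-5p was not counted.

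The rest of the locus was read near or below the limit of detection. miR-450b-3p, from the last hairpin, was detected on all 8 arrays with −3.26 and −3.40 in cKO at E17.5, −3.55 and −3.45 in cKO at E16.5, −3.47 and −3.49 in wild type at E17.5, and −3.60 and −3.48 in wild type at E16.5. Its genotypes overlapped, with a change of 0.10 and an interval of −0.02 to 0.22 (adjusted p = 0.136, limma). miR-450a-2-3p was well above background on 2 arrays, both wild type at E17.5, yet lay at the floor on all 8. miR-450b-5p was detected on 1 array, and miR-503-3p and miR-450a-1-3p on 0. The mature miR-450a-1-3p and miR-450b-3p have 20 of 22 bases in common, and their sequences are shown for that likeness.
miR-450a-1-3p: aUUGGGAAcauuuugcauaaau
miR-450b-3p: aUUGGGAAcauuuugcaugcau

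The brightest probe for miR-450a-1-3p matches miR-450b-3p over a run of 16 bases, and it was not well above background on any array.

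Other miRNAs with the members' seeds were read beside them. Of those with bases 2 to 7 of miR-322-5p and miR-503-5p, 5 were tested: miR-15a-5p, miR-15b-5p, miR-16-5p, miR-195a-5p and miR-497a-5p. In cKO 4 of the 5 were higher over both stages, with a median of 0.20, beside 45.7% of all tested miRNAs and their median of 0.17. miR-497a-5p had 0.33 ± 0.0644 (SE; adjusted p = 0.00884, limma) and miR-15a-5p 0.21 ± 0.0313 (adjusted p = 0.00311), whereas miR-15b-5p had 0.07 with an interval of −0.05 to 0.20. miR-15a-5p read −0.56 and −0.46 in cKO at E17.5, −0.63 on both cKO arrays at E16.5, −0.79 and −0.80 in wild type at E17.5, and −0.74 and −0.81 in wild type at E16.5, with no overlap between the genotypes. miR-1907, a further listed miRNA, was detected on no array. Both miRNAs with the seed of miR-351-5p were higher, miR-125b-5p by 0.30 and miR-125a-5p by 0.21. With the control probes as the scale the median of all tested miRNAs is −0.34, and these values shift with it.

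The pattern of the cluster over the 8 arrays was taken as the mean of the 6 members detected on all of them, each centred on its own mean. It stood at 0.18 and 0.15 in cKO at E17.5, 0.05 and 0.02 in cKO at E16.5, −0.11 and −0.14 in wild type at E17.5, and −0.06 and −0.09 in wild type at E16.5. miR-503-5p followed the mean of the other members at r = 0.994, miR-322-5p at 0.92, miR-322-3p at 0.91 and miR-450a-5p at 0.896. miR-351-5p followed it at 0.549 and miR-542-3p at 0.503. Of 246 other miRNAs detected on all 8 arrays, 1 had a higher r than miR-503-5p and 32 than miR-322-5p. For miR-322-3p, miR-450a-5p, miR-351-5p and miR-542-3p the counts were 34, 38, 100 and 105. Among these 246, those most like the pattern were miR-495-3p (r = 0.9955), miR-409-5p (0.98), miR-574-3p (0.9795), miR-300-3p (0.9763) and miR-487b-3p (0.9745). The closest in size was miR-487b-3p, at a root mean square distance of 0.0278 on the log2 scale. These 8 points share the arrays and their scaling, 37 of the 246 had r of at least 0.9, and the values are a description.

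Markers of the tissue were read beside these results. All 10 miRNAs listed for skin epithelium, such as the miR-200 family and miR-205-5p, were lower in cKO over both stages (14.6% of all tested miRNAs), with a median of −2.56. The opposite arm of the miR-205 hairpin, miR-205-3p, is not on that list and was higher by 0.83 (adjusted p = 0.00303, limma); it was named after its value was seen. Their summed scaled signal was 2.84 to 4.31 on the cKO arrays and 27.2 to 32.1 on the wild-type arrays, and miR-183-5p was detected on no cKO array. Of 9 listed for dermal mesenchyme and fibroblasts, 8 were higher, where 45.7% of all tested miRNAs were, with a median of 0.34 and sums of 64.7 to 70.6 in cKO and 49.5 to 56.3 in wild type. The members' own sum was 3.92 to 4.38 in cKO and 3.44 to 3.64 in wild type, most of it from miR-503-5p and miR-322-5p. Sums of different lists are not set against each other, because probes differ in response. All 5 listed for skeletal muscle and both for endothelium were higher, with medians of 0.32 and 0.44, as were 3 of 6 for blood and 1 of 4 for cartilage. Whether the rises of these lists hold under other scalings was not tested. Over all tested miRNAs 4 were higher and 303 lower with the control probes. The part of these cell types in the cluster's change was not tested. Of 27 listed miRNAs from other loci of the X chromosome, 24 were found on the array under these names and 16 were tested. Of those, 8 were higher and 5 lower, with a median of 0.05, beside 45.7% higher and 14.6% lower among all tested miRNAs.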

How the data were processed

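RNA from mouse footpad skin was read on 8 single-colour Agilent miRNA arrays on 1 slide. Per the file headers, the deposited intensity of each spot is the background-subtracted signal of Agilent Feature Extraction 11.5.1.1, with no scaling between arrays. The deposited value table holds the same intensity within 0.02 for 100% of spots with a signal above 0, with column medians of 2.9 to 5.12 and 1 constant value where the scanner signal is not above 0. Spots marked as outliers (2.84% to 6.03% an array) were dropped. The mean over a probe's spots was divided by the array's 75th percentile of 474 probes, those detected throughout, raised to a floor (the 5th percentile of detected probes) and put on the log2 scale. The probe with the highest mean stood for a miRNA. A miRNA was tested where both arrays of at least 1 group detected it (383 of 1881), with limma 3.58.1 in R 4.3.3 (group means of all 8 arrays, trended empirical Bayes, Benjamini-Hochberg over all tested, adjusted p under 0.05). Figures were drawn with matplotlib 3.10.9.

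Ratios within an array were tested by exact permutation. Those with miR-542-5p were left out, since 1 array did not detect it. The statistics were tested on simulated data for cKO minus wild type over both stages only. Of simulated log2 changes of 0.15, 56% were recovered, and of those of 0.3, 87.2%. Of the calls, 3.18% were false. How the choice of scaling alters these shares was not tested. The rule for named miRNAs took all members, the other arms of the locus, miRNAs with the same seeds and the 5 miRNAs most like the cluster's mean pattern. Members and lists were chosen with earlier results of these data known. The labels do not say that replicate numbers pair samples, but each number is 1 row of the slide, so the row was tried as a block. The number of arrays limits the precision.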

Additional observations from a re-analysis of the deposited data

Results flagged for a closer look

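In 3 members every array of one group moved one way and every array of the other the opposite way, under the scaling used here. For miR-322-3p the E17.5 arrays lay above the E16.5 arrays in cKO and below them in wild type, and the genotype effects at the stages differed by 0.25 (limma, adjusted p = 0.179). For miR-503-5p the same crossing gave a difference of 0.24 (adjusted p = 0.0656). Such a crossing was seen in 37 of 383 tested miRNAs (9.66%). miR-542-3p was higher on both cKO arrays than on both wild-type arrays at E17.5 and lower at E16.5, a difference of 0.18 (limma, adjusted p = 0.135), and 31 of 383 miRNAs (8.09%) crossed in that way. At E16.5 the nearest arrays of miR-542-3p read −3.09 in cKO and −3.08 in wild type, so that side of the crossing is narrow. No difference passed the test.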

How the results depend on the processing

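The direction of the cluster's change depended on the scaling. In the order miR-322-5p, miR-322-3p, miR-503-5p, miR-351-5p and miR-450a-5p, cKO minus wild type over both stages was −0.05, −0.09, −0.02, −0.07 and 0 with the 75th percentile of all probes, −0.08, −0.12, −0.05, −0.09 and −0.03 with no scaling, and −0.35, −0.39, −0.32, −0.37 and −0.30 with the positive control probes, where miR-542-3p and miR-542-5p were both at −0.54. At E17.5 it was −0.06 for miR-322-5p, −0.02 for miR-322-3p and −0.03 for miR-351-5p with all probes, where miR-503-5p at 0.05 and miR-450a-5p at 0.01 kept their sign without passing; −0.12, −0.07, −0.01, −0.08 and −0.05 for the same 5 with no scaling; and −0.51, −0.47, −0.40, −0.48 and −0.45 with the control probes, beside −0.66 for miR-542-3p and −0.74 for miR-542-5p. At E16.5 miR-322-5p, miR-503-5p, miR-351-5p and miR-450a-5p had −0.04, −0.09, −0.11 and −0.02 with all probes, −0.04, −0.08, −0.10 and −0.01 with no scaling, and −0.19, −0.23, −0.25 and −0.16 with the control probes, beside −0.34 for miR-542-5p. The genotype effect at E17.5 minus that at E16.5 was −0.32 for miR-322-5p and −0.40 for miR-542-5p with the control probes.

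Between stages over both genotypes, miR-351-5p was 0.16 with all probes, 0.36 with no scaling and 0.02 with the control probes. With normexp background correction miR-542-3p was −0.19 and miR-542-5p −0.23 over both genotypes, miR-542-3p −0.13 in cKO and miR-542-5p −0.27 in wild type. In wild type miR-351-5p was 0.12 with all probes, 0.35 with no scaling and 0.13 with the control probes, miR-542-3p 0.59 with no scaling and 0.37 with the control probes, and miR-322-3p 0.33 and miR-503-5p 0.32 with the control probes.

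Counts of members called moved as follows. With all probes, no scaling or the control probes, 0 members were higher in cKO in the joint, the E16.5 and the E17.5 comparison, and with the control probes 7, 5 and 7 were lower, while 2 had a lower genotype effect at E17.5 than at E16.5. The scanner's summed signal gave 3 higher in the joint comparison, 3 at E17.5 and 2 at E16.5. Quantile scaling gave 1 lower at E16.5, normexp 1 higher at E16.5, the E16.5 arrays alone 1 higher, and the median of the detected probes 3 higher at E17.5. Between stages over both genotypes, all probes gave 0 higher and 0 lower, the detected-probe median 4 higher, quantile scaling 3 higher and 0 lower, no scaling and the control probes 6 higher and 0 lower each, normexp 0 higher and 3 lower, the mean of all detected probes 2 higher, and the summed signal 2 higher and 0 lower. In cKO all probes, no scaling and the control probes gave 0 higher and normexp 1. In wild type all probes, quantile scaling, the mean of detected probes, the summed signal and the arrays of the contrast alone gave 0 lower, the detected-probe median 1 higher and 0 lower, no scaling 4 higher and 0 lower, the control probes 6 higher and 0 lower, and normexp 3 lower. The cause was not tested.

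Leaving out 1 array at a time gave 1 to 4 members higher in cKO at E16.5, 0 to 2 higher and 0 to 1 lower between stages over both genotypes, 0 to 3 higher between stages in cKO, and 0 to 1 lower in wild type. Without the second array of both E16.5 groups, chosen after seeing the data, 0 members were higher in cKO at E16.5, 1 was higher between stages in cKO and 0 were lower in wild type. The deviations of same-numbered arrays, which share a slide row, correlated above 0.1 in 5 of the 6 pairs of groups (0.118 to 0.275) and at −0.141 between the E16.5 groups, which does not settle whether the numbers pair the samples. With the replicate block, 5 members were higher over both stages and 3 at E16.5, 2 were higher between stages in cKO, and no count of members called moved by over 1.5 times. The crossed pairing at E16.5, also chosen after seeing the data, gave 1 member higher. Without the filter, miRNAs at the floor on every array were left out. Of the other member values, 955 kept their side of the threshold, 80 of them with another sign and no call in either setting, while 103 lost and 36 gained a call.

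Over all tested miRNAs, cKO minus wild type gave 175 higher and 56 lower in the joint comparison, but 5 and 44 with all probes, 6 and 57 with no scaling, and 4 and 303 with the control probes. The share of calls that were higher was 78% at E17.5, against 57.3% with the detected-probe median, 11.1% with all probes, 8% with no scaling and 0.299% with the control probes. At E16.5 it was 70.1%, against 18.2% with all probes, 19% with no scaling and 3.05% with the control probes. Between stages over both genotypes it was 36.4%, against 50.6% with the detected-probe median, 59% with quantile scaling, 85.7% with all probes, 97.9% with no scaling and 93.1% with the control probes.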
